A study of Mus musculus with 16 samples.

Results

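The genes described here are 34 enzymes that make, remodel or break down sphingolipids and membrane phospholipids, out of 54532 genes in a table of RNA sequencing values from whole mouse retina. They were picked by gene symbol, and each symbol matched 1 row. The samples were retinas of 12-day-old mice of the BALBc and C57 strains. BALBc hyperoxia and C57 hyperoxia mice were kept in 75% oxygen from day 7 after birth to day 12, which makes retinal capillaries regress, and BALBc normoxia and C57 normoxia mice were never moved from room air. There were 4 libraries in each of the 4 groups. No mutation, transgene or drug is named for any group, so strain and oxygen are the only labelled differences. The design text speaks of a resistant and a susceptible strain and does not say which is which. The labels do not tie the libraries of a group to different animals. The p-values therefore cover no more than the scatter among these libraries, which may be in part technical. Sex transcripts, given below, differed among the libraries of both BALBc groups and of C57 normoxia. The libraries of those groups are therefore not all repeats of the same sample, but the labels do not give the number of animals.

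Sphingolipids are built on a sphingoid base. Serine palmitoyltransferase joins serine to palmitoyl-CoA, a reductase and a ceramide synthase follow, and a desaturase yields ceramide, from which sphingomyelin, glucosylceramide and sphingosine 1-phosphate are made. Phosphatidylcholine and phosphatidylethanolamine come mainly from activated choline and ethanolamine, while phosphatidylinositol and cardiolipin come from CDP-diacylglycerol. Photoreceptors renew the stacked membranes of their outer segments throughout life, and several of these enzymes are known from inherited retinal degeneration, among them LPCAT1 in mice and CERKL in humans.

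Values are FPKM, fragment counts scaled to gene length and to a library size, as the authors deposited them. Because FPKM is per length, levels can be set beside each other between genes. The FPKM steps gave back 16.7 M to 29.7 M whole reads per library. Differences and tests are on the log2(FPKM + 0.5) scale, from a limma model of all 4 groups, with Benjamini-Hochberg adjustment over all 14953 genes that reached 1 FPKM in at least 4 libraries. A gene is called, or said to rise, fall or differ, at an adjusted p under 0.05. Of the 34 enzymes, 32 passed that filter.

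The libraries differed in makeup, within groups and between them. Summed FPKM of 14 rod photoreceptor genes was between 9134 and 20109 in BALBc hyperoxia and between 15324 and 17812 in BALBc normoxia. It was between 10948 and 12692 in C57 hyperoxia and between 6922 and 20229 in C57 normoxia. All 4 C57 hyperoxia libraries had 61.8 to 105 FPKM of the female transcript Xist and 0 of the Y-linked gene Ddx3y, whereas C57 normoxia replicates 1 to 3 had 11.9 to 16.6 FPKM of Ddx3y and replicate 4 had both. Each BALBc group held libraries of both kinds. Summed FPKM of 9 lens genes ran from 3.14 to 4734 within C57 hyperoxia. Summed FPKM of 10 endothelial genes, none of them at 0, was 21.4 to 35.4 in BALBc hyperoxia, 38.4 to 48.8 in BALBc normoxia, 41.0 to 45.6 in C57 hyperoxia and 52.0 to 72.7 in C57 normoxia, so that it was lower in hyperoxia and lower in BALBc without overlap in each pair compared here. Its part in the results was not tested.

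The 34 enzymes spanned a wide range of levels. Averaged over the 16 libraries, 8 lay above 20 FPKM, 15 between 5 and 20, 9 between 1 and 5, and 2 below 1. The small serine palmitoyltransferase subunit Sptssa was the most abundant at 62.1 FPKM. It was followed by Lpcat1, which attaches acyl chains to lysophosphatidylcholine (52.9 FPKM), Cds2, which makes CDP-diacylglycerol (51.8), the acid sphingomyelinase Smpd1 (49.8), the ceramide kinase Cerk (40.9) and Cds1, the second CDP-diacylglycerol synthase (37.7). The 2 large serine palmitoyltransferase subunits were far lower, at 7.55 FPKM for Sptlc1 and 5.97 FPKM for Sptlc2. Among the ceramide synthases, Cers4 was highest at 20.3 FPKM, ahead of Cers5 (13.5), Cers2 (10.9), Cers1 (3.78) and Cers6 (3.18). Of the sphingomyelin synthases, Sgms1 averaged 2.20 FPKM and Sgms2 0.513. Pemt, which methylates phosphatidylethanolamine and is best known from liver, averaged 0.532 FPKM. These were the 2 enzymes below the filter, and no group difference was tested for them. Sgms2 ran from 0.323 to 0.982 FPKM on 42 to 114 recovered reads per library, and Pemt from 0.274 to 0.797 FPKM on 11 to 37 reads.

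**Figure D1:**
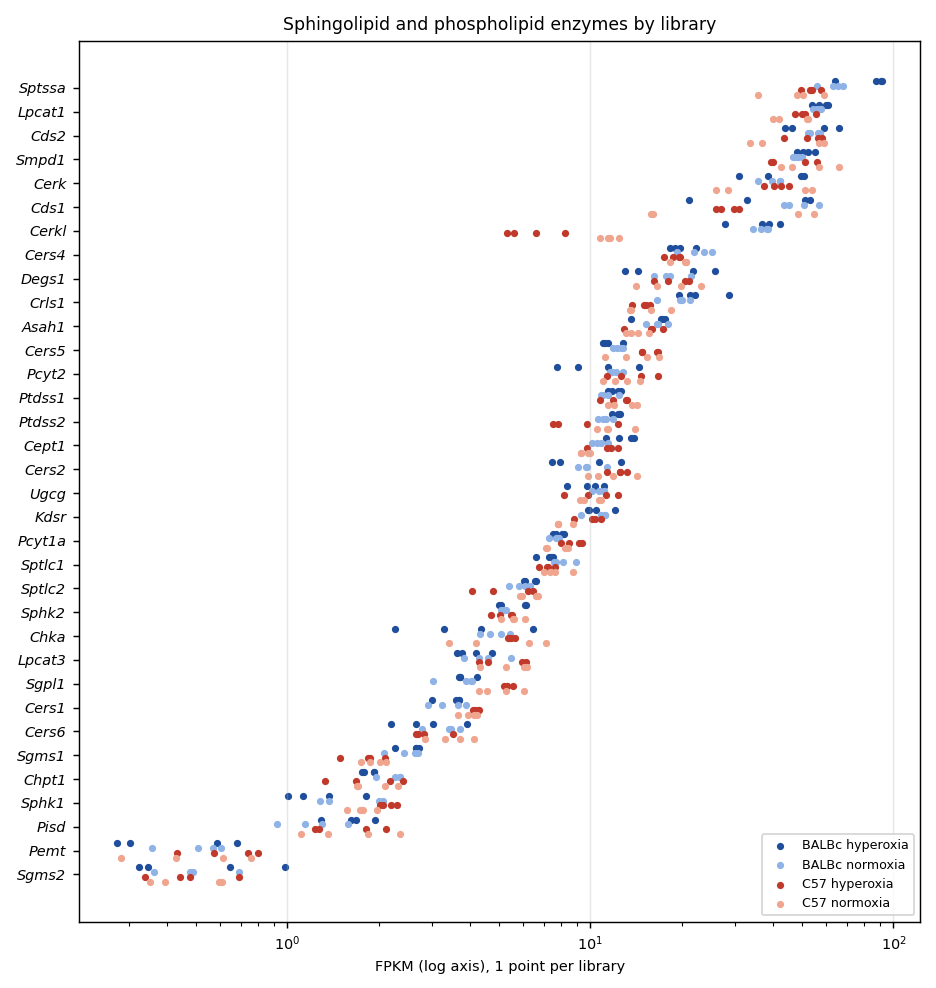
FPKM of the 34 enzymes on a log axis, 1 point per library, ordered by their mean, with colours for the 4 groups. Means run from 62.1 FPKM for Sptssa down to 0.513 for Sgms2, and the Cerkl libraries split into BALBc at 27.8 to 42.2 FPKM and C57 at 5.32 to 12.4 FPKM.

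Strain differences in room air were compared as BALBc normoxia against C57 normoxia. Of the 32 tested enzymes, 3 differed: Cerkl and Kdsr were higher and Sgpl1 was lower in BALBc. Across all tested genes, 9.08% were called in this comparison, 4.7% higher and 4.38% lower, so the share of the enzymes was close to the background. With libraries rescaled to TPM, 1 enzyme was higher and 0 were lower. Libraries of the strains did not overlap for 5 of the 32, against 18% of all tested genes. The median difference of the enzymes was 0.00 on the log2 scale, beside 0.01 for all tested genes.

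Cerkl, a relative of ceramide kinase whose human counterpart is mutated in retinal dystrophy, showed the largest difference of the 32. It had 38.6, 34.3, 38.3 and 36.5 FPKM in BALBc normoxia, against 11.6, 12.4, 11.4 and 10.8 FPKM in C57 normoxia. The lowest BALBc library was well above the highest C57 library. The ratio of means was 3.19 (log2 difference 1.63, SE 0.13, limma adjusted p = 3.85e-07), and it was called in each of the 29 other settings. In hyperoxia the strains lay still further apart, with 27.8, 38.9, 36.7 and 42.2 FPKM in BALBc hyperoxia against 6.63, 8.22, 5.58 and 5.32 FPKM in C57 hyperoxia, a ratio of 5.65 (log2 difference 2.41, SE 0.13, limma adjusted p = 2.85e-09). These values rest on 581 to 4656 recovered reads per library. The ceramide kinase gene proper, Cerk, averaged 40.0 ± 3.10 FPKM in BALBc normoxia, against 39.9 ± 14.7 FPKM in C57 normoxia (SD, n = 4 each; limma adjusted p = 0.874).

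The Cerkl gene model (ENSMUSG00000075256, GRCm38 chr2:79330543-79456785, minus strand) shares exon sequence with 2 neighbours. Of its 5284 exon bases, 1124 (21.3%) also lie in exons of Itga4 on the opposite strand, at the 3′ end of both genes, and 201 (3.80%) lie in exons of Neurod1 on the same strand. Whether the counting used strand is not given in the sources used here, so reads from the shared stretches cannot be assigned with certainty. Itga4, an integrin subunit best known from leukocytes, moved the same way: it averaged 30.6 ± 2.67 FPKM in BALBc normoxia, against 11.0 ± 3.27 FPKM in C57 normoxia (SD, n = 4 each; log2 difference 1.47, SE 0.19, limma adjusted p = 8.25e-05). In hyperoxia Itga4 averaged 26.1 ± 5.59 FPKM in BALBc and 6.12 ± 1.22 FPKM in C57 (log2 difference 2.0, SE 0.19, limma adjusted p = 2.32e-06). Neurod1, a transcription factor of photoreceptors, averaged 281 ± 41.9 FPKM in BALBc hyperoxia and 182 ± 31.8 FPKM in C57 hyperoxia (log2 difference 0.63, SE 0.14, limma adjusted p = 0.00464). In normoxia it averaged 246 ± 21.2 FPKM in BALBc and 199 ± 15.5 FPKM in C57 (log2 difference 0.31, SE 0.14, limma adjusted p = 0.19). How far reads of Itga4 or Neurod1 enter the Cerkl values was not tested.

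Kdsr, the reductase of the second step of sphingoid base synthesis (ENSMUSG00000009905, chr1:106720459-106759727), had 10.8, 11.1, 11.2 and 9.30 FPKM in BALBc normoxia, against 7.82, 7.80, 8.72 and 7.83 FPKM in C57 normoxia. The groups did not overlap (log2 difference 0.38, SE 0.09, limma adjusted p = 0.0142). The call was lost without BALBc normoxia replicate 3 (log2 difference 0.35, adjusted p = 0.0509) and with libraries rescaled to TPM (adjusted p = 0.206). Sgpl1, the lyase that breaks down sphingosine 1-phosphate for good (ENSMUSG00000020097, chr10:61098642-61147703), had 4.03, 3.89, 3.02 and 4.07 FPKM in BALBc normoxia, against 5.25, 6.05, 4.29 and 4.55 FPKM in C57 normoxia. Every BALBc library was below every C57 library (log2 difference -0.38, SE 0.11, limma adjusted p = 0.0394), but 12 of 29 other settings lost the call, with adjusted p of up to 0.143. Among them were the fits without C57 normoxia replicate 1 or 2 (adjusted p = 0.105 and 0.124) and without any 1 of the BALBc normoxia replicates (adjusted p = 0.0564, 0.0606, 0.126 and 0.0503 for replicates 1 to 4). C57 normoxia replicates 1 and 2, the highest in Sgpl1, were also the lowest in rod genes, and with the rod list as a covariate the difference was -0.28 (adjusted p = 0.0701).

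The promoters of the 3 enzymes called in room air are given because these genes differed between the strains in room air. Each window runs 250 bases before to 50 after the transcription start, from RefSeq on GRCm38.p6, an assembly of the C57BL/6J strain, so BALBc alleles are not shown. Capitals mark ACGTG, the core bound by hypoxia-inducible factors, searched on both strands together with TAATCC, the core bound by the photoreceptor factor CRX. Cerkl (chr2:79428939-79429238, minus strand), Kdsr (chr1:106759693-106759992, minus strand) and Sgpl1 (chr10:61147635-61147934, minus strand):
Cerkl: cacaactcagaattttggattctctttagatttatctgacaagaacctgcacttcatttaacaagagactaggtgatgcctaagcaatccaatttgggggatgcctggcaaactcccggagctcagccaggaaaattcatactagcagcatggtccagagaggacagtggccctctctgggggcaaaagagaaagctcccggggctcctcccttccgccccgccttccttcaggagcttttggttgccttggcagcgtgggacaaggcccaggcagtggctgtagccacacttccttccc
Kdsr: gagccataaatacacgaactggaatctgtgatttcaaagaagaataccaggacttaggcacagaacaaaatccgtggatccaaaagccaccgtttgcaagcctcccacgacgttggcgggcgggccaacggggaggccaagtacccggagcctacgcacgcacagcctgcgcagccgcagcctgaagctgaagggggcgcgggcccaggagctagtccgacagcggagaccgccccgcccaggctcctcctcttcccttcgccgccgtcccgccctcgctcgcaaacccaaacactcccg
Sgpl1: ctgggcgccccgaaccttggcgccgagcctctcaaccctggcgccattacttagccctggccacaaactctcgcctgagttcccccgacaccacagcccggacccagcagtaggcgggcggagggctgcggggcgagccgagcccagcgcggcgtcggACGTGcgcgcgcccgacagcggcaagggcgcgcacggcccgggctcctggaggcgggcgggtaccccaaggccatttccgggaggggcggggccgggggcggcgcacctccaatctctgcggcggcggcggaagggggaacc
The Sgpl1 window holds 1 match to ACGTG, and the windows of Cerkl and Kdsr hold none of either core. The Cerkl window lies inside the counted gene model, which reaches chr2:79456785 on the minus strand. It is therefore not at the 5′ end of that model. Of 53 windows of 31 matched enzymes, 28.3% held ACGTG and 7.55% held TAATCC, against 19.6% and 7.06% of all 32851 windows of the table. A match describes the letters of a window and nothing more.

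Under hyperoxia the strains differed at more of these genes. Between BALBc hyperoxia and C57 hyperoxia, 5 of the 32 enzymes were higher (Cerkl, Sptssa, Crls1, Sgms1 and Ptdss2) and 3 were lower (Cers5, Sgpl1 and Sphk1). This comparison called 22.6% of all tested genes, 11.8% higher and 10.8% lower, so 8 of 32 was again close to the background. Groups did not overlap for 8 of the 32, against 21.4% of all tested genes. With libraries rescaled to TPM the split became 2 higher and 4 lower, and that scaling moved the median gene by -0.16. The endothelial sum, 21.4 to 35.4 FPKM in BALBc hyperoxia and 41.0 to 45.6 FPKM in C57 hyperoxia, moved with this comparison, and its part was not tested. In bulk tissue, fewer cells of a type and less RNA per cell cannot be told apart.

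In the synthesis of sphingoid bases and their products, Sptssa and Sgms1 were higher in BALBc. Sptssa had 64.1, 87.4, 91.7 and 91.0 FPKM in BALBc hyperoxia, against 53.0, 49.4, 57.8 and 53.9 FPKM in C57 hyperoxia (log2 difference 0.63, SE 0.14, limma adjusted p = 0.00635). The groups did not overlap, although BALBc replicate 1 came close. Sgms1, the Golgi sphingomyelin synthase, had 2.26, 2.66, 2.66 and 2.71 FPKM in BALBc hyperoxia and 1.87, 2.10, 1.49 and 1.85 FPKM in C57 hyperoxia (0.41, SE 0.11, limma adjusted p = 0.018). Cers5, a ceramide synthase that prefers long-chain acyl-CoA, went the other way, with 12.8, 11.0, 11.1 and 11.4 FPKM in BALBc hyperoxia against 16.8, 16.5, 14.8 and 14.8 FPKM in C57 hyperoxia (-0.43, SE 0.10, limma adjusted p = 0.00975). The groups stood apart for both genes, and the Sgms1 call was lost in 5 of 29 other settings. These were TPM scaling (adjusted p = 0.171), the sex covariate (0.0563), both covariates (0.132), the hyperoxia groups alone (0.0696) and the fit without C57 hyperoxia replicate 3 (0.0526). Of the other ceramide synthases none was called. Cers1 did not overlap either, at 3.0 to 3.69 FPKM in BALBc hyperoxia and 4.11 to 4.30 FPKM in C57 hyperoxia (limma adjusted p = 0.0761).

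Sphk1 and Sgpl1 were lower in BALBc hyperoxia. Sphk1, a kinase that makes sphingosine 1-phosphate, had 1.81, 1.0, 1.12 and 1.37 FPKM in BALBc hyperoxia and 2.07, 2.30, 2.02 and 2.20 FPKM in C57 hyperoxia (log2 difference -0.55, SE 0.16, limma adjusted p = 0.0196). All 4 BALBc libraries lay below the C57 libraries, on 89 to 223 recovered reads per library over the 4 groups. The call was lost in 6 of 28 other settings: without BALBc hyperoxia replicate 2 or 3 (adjusted p = 0.0624 and 0.0558), without C57 hyperoxia replicate 2 (0.0523), with the hyperoxia groups alone (0.0544), with the rod covariate (0.0579) and with the sex and rod covariates (0.0992). Sgpl1, at the other end of sphingosine 1-phosphate, had 4.23, 3.69, 3.71 and 3.72 FPKM in BALBc hyperoxia and 5.56, 5.32, 5.30 and 5.17 FPKM in C57 hyperoxia (-0.43, SE 0.11, limma adjusted p = 0.011), and lost the call in 1 of 29 other settings, the sex and rod covariates together (adjusted p = 0.0729). The second kinase, Sphk2, averaged 5.57 ± 0.623 FPKM in BALBc hyperoxia and 5.17 ± 0.387 FPKM in C57 hyperoxia (SD, n = 4 each; limma adjusted p = 0.454), and its model shares exon bases with Dbp and Rpl18 on the opposite strand. The lysosomal enzymes Smpd1 and Asah1, which free ceramide and sphingosine, had differences of 0.15 and 0.08 (limma adjusted p = 0.438 and 0.608).

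Among phospholipid enzymes, Crls1 and Ptdss2 were higher in BALBc hyperoxia. Crls1, which makes the mitochondrial lipid cardiolipin (ENSMUSG00000027357, chr2:132846666-132866785), had 21.3, 19.6, 22.2 and 28.7 FPKM in BALBc hyperoxia, against 15.7, 13.7, 15.0 and 15.3 FPKM in C57 hyperoxia. The groups did not overlap (log2 difference 0.59, SE 0.12, limma adjusted p = 0.0037), and the call was lost with TPM scaling alone (adjusted p = 0.0853). Ptdss2, which makes phosphatidylserine from phosphatidylethanolamine, had 11.8, 12.4, 12.6 and 12.3 FPKM in BALBc hyperoxia and 7.51, 7.84, 9.75 and 12.3 FPKM in C57 hyperoxia. C57 replicate 4 lay within the BALBc range and replicates 1 and 2 far below it (0.40, SE 0.13, limma adjusted p = 0.0323), and 10 of 29 other settings lost the call. Without BALBc hyperoxia replicate 2, 3 or 4 the adjusted p was 0.0668, 0.0698 and 0.0659. Without C57 hyperoxia replicate 1 the difference was 0.31 (adjusted p = 0.104), and without replicate 2 it was 0.33 (adjusted p = 0.1). Ptdss1, which uses phosphatidylcholine instead, differed by -0.02 (limma adjusted p = 0.889). The 5 enzymes of the choline and ethanolamine route ran from -0.46 for the choline kinase Chka to 0.18 for Cept1, with none called. Lpcat1 and Lpcat3 had differences of 0.19 and -0.32 (limma adjusted p = 0.162 and 0.114).

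**Figure D2:**
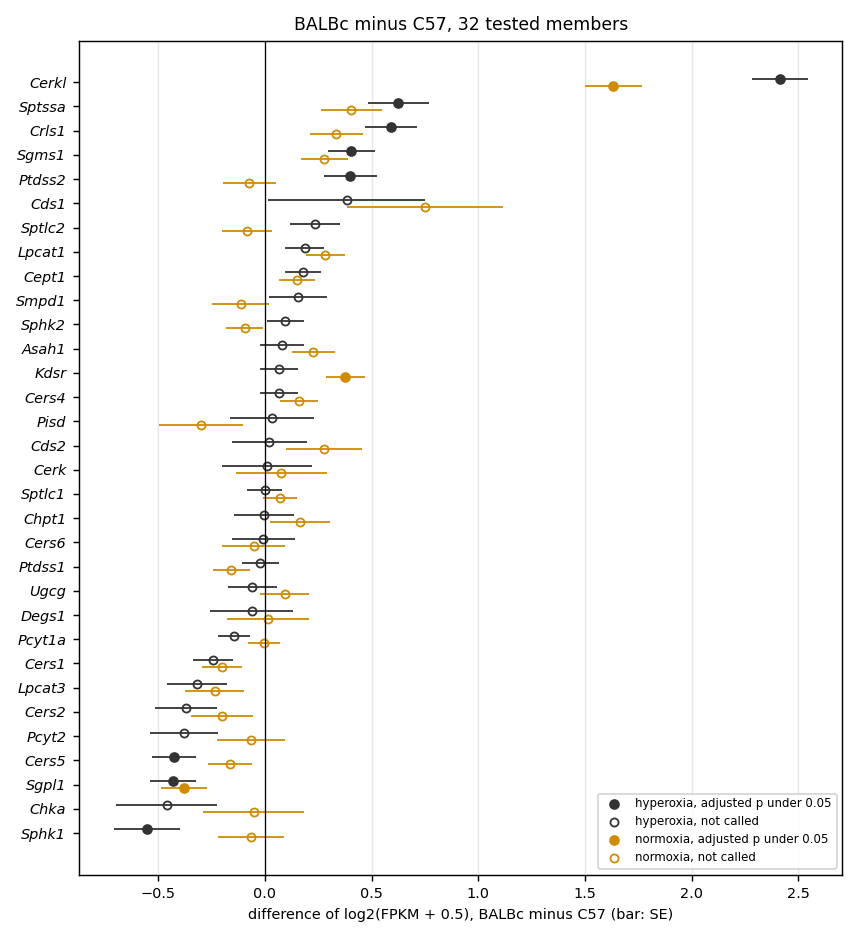
BALBc minus C57 difference of log2(FPKM + 0.5) for the 32 tested enzymes in hyperoxia (dark) and normoxia (orange), with SE bars, filled where the adjusted p was under 0.05. Cerkl stands far to the right at 2.41 and 1.63, and every other enzyme lies between -0.55 and 0.75.

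The responses to oxygen were smaller. In C57 retinas, hyperoxia against normoxia called 1 of the 32 enzymes, Cerkl, which was lower. This comparison called 0.334% of all tested genes, 0.227% lower. Groups did not overlap for 3 of the 32, with Kdsr and Sphk1 higher and Cerkl lower in hyperoxia, against 7.63% of all tested genes. An unadjusted p below 0.05 was found for 5 of the 32, against 13.3% of all tested genes. The median change of the 32 was 0.04 on the log2 scale, beside 0.01 for all tested genes.

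Cerkl fell to 6.44 ± 1.31 FPKM in C57 hyperoxia, against 11.6 ± 0.690 FPKM in C57 normoxia (SD, n = 4 each; log2 change -0.81, SE 0.13, limma adjusted p = 0.0246). The highest hyperoxia library, at 8.22 FPKM, was below the lowest normoxia library, at 10.8. The call was lost without any 1 of the C57 normoxia libraries and without hyperoxia replicate 1. In these 5 fits the adjusted p was between 0.051 and 0.0915, with changes of -0.78 to -0.85. Calls among all tested genes were then 2, 0, 0 and 0 without C57 normoxia replicates 1 to 4. They were 0 without C57 hyperoxia replicate 1, against 50 with all libraries. With the log2 level of Ddx3y as a sex covariate the change was -0.67 (adjusted p = 0.481), and fitted on the C57 libraries alone the adjusted p was 0.154. Sex of the libraries moved with oxygen in C57, and its part in the change was not tested beyond that covariate. In BALBc normoxia Cerkl had 38.6 and 34.3 FPKM in replicates 1 and 2, with 16.5 and 18.2 FPKM of Ddx3y, and 38.3 and 36.5 FPKM in replicates 3 and 4, with 0.755 and 0. In BALBc hyperoxia Cerkl had 27.8, 38.9, 36.7 and 42.2 FPKM in replicates 1 to 4. Ddx3y in these libraries was 0.0277, 0, 1.61 and 20.5 FPKM. The library highest in Ddx3y was also the highest in Cerkl, which rests on 1 library. In BALBc normoxia, replicates 3 and 4, low in Ddx3y, lay between replicates 1 and 2 in Cerkl. Rod genes in C57 normoxia were low in replicates 1 and 2 and high in replicates 3 and 4, and Cerkl was 11.6, 12.4, 11.4 and 10.8 FPKM in these libraries. In BALBc hyperoxia, where replicate 1 was lowest in Cerkl, the rod list means of replicates 1 to 4 were 8.94, 10.01, 10.02 and 9.56 on the log2(FPKM + 0.5) scale. The rod covariate raised the calls among all tested genes in C57 from 50 to 480. With it the change of Cerkl was -0.81 (adjusted p = 0.00864), and rod content was not tested further. Its neighbour Itga4 averaged 6.12 ± 1.22 FPKM in C57 hyperoxia and 11.0 ± 3.27 FPKM in C57 normoxia, and missed the threshold (SD, n = 4 each; log2 change -0.77, SE 0.19, limma adjusted p = 0.102). The change of Neurod1 was -0.14 (SE 0.14, limma adjusted p = 0.71).

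The other C57 members with the smallest p were Kdsr and Ptdss2, and neither passed the threshold. Kdsr had 10.4, 10.8, 8.81 and 10.1 FPKM in C57 hyperoxia and 7.82, 7.80, 8.72 and 7.83 FPKM in C57 normoxia (log2 change 0.30, SE 0.09, limma adjusted p = 0.152). The groups just failed to touch, between 8.81 and 8.72. Ptdss2 had 7.51, 7.84, 9.75 and 12.3 FPKM in C57 hyperoxia and 11.4, 10.5, 14 and 11.5 FPKM in C57 normoxia (-0.34, SE 0.13, limma adjusted p = 0.236). Its hyperoxia libraries spread over a wider range than the normoxia ones. For the 31 enzymes that were not called, the 95% intervals of the change reached from -0.81 to 0.75 on the log2 scale at their widest, so changes of that size are within the error of the least precise of them.

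In BALBc retinas, hyperoxia against normoxia called 0 of the 32 enzymes in limma, while 2 had an unadjusted p below 0.05, both higher, against 14.2% of all tested genes. limma voom on recovered reads also called 0. The background was 0.161% of all tested genes called. Groups did not overlap for 2 of the 32, Sptlc1 and Chpt1, both lower in hyperoxia, against 8.82% of all tested genes. The smallest p belonged to Cept1, which joins activated choline or ethanolamine to diacylglycerol. It had 11.2, 12.4, 13.6 and 13.9 FPKM in BALBc hyperoxia and 10.5, 11.4, 10.9 and 10.1 FPKM in BALBc normoxia (log2 change 0.24, SE 0.09, limma adjusted p = 0.213). Its hyperoxia replicate 1 lay among the normoxia values.

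Sptssa had 64.1, 87.4, 91.7 and 91.0 FPKM in BALBc hyperoxia and 65.8, 63.0, 68.1 and 56.1 FPKM in BALBc normoxia (log2 change 0.39, SE 0.14, limma adjusted p = 0.228). Hyperoxia replicates 2 to 4 were above every normoxia library and replicate 1 was not. With the rod covariate the change was 0.38 and passed the threshold (adjusted p = 0.0471). That covariate raised the calls among all tested genes from 24 to 641. Cers4, the most abundant ceramide synthase here, had 19.7, 19.1, 18.2 and 22.3 FPKM in BALBc hyperoxia and 21.9, 19.4, 23.6 and 25.2 FPKM in BALBc normoxia (-0.18, SE 0.09, limma adjusted p = 0.392). Cerkl averaged 36.4 ± 6.17 FPKM in BALBc hyperoxia and 36.9 ± 1.98 FPKM in BALBc normoxia (SD, n = 4 each; log2 change -0.03, 95% interval -0.31 to 0.24, limma adjusted p = 0.936).

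**Figure D3:**
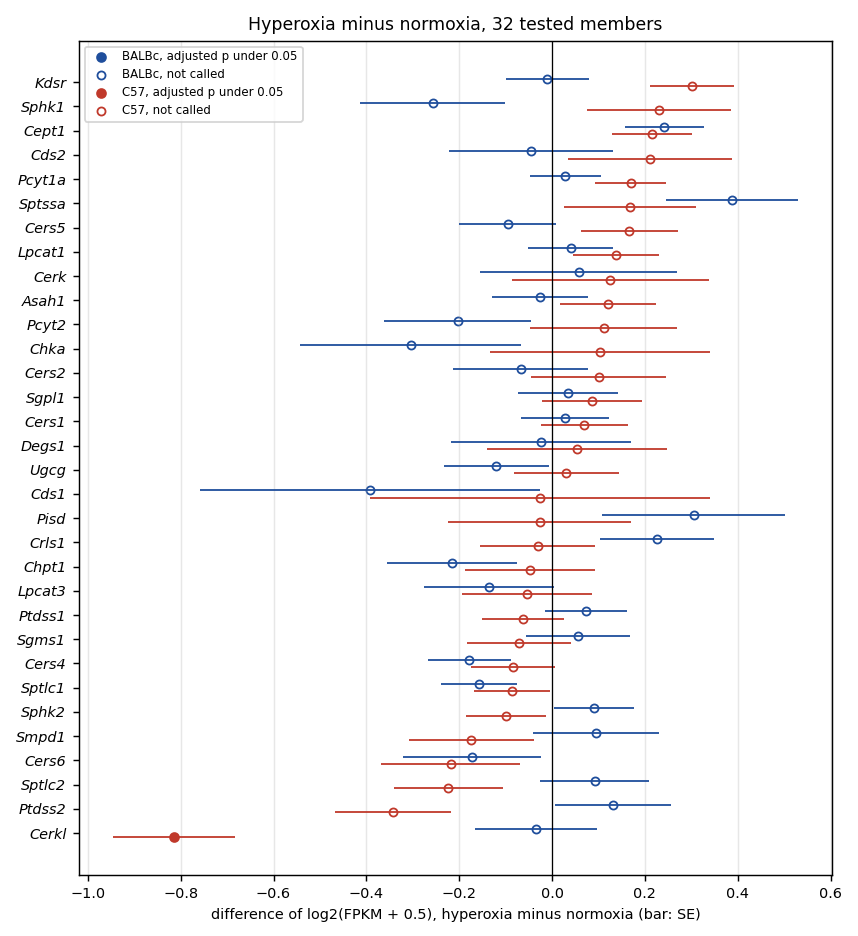
Hyperoxia minus normoxia change of log2(FPKM + 0.5) for the 32 tested enzymes in BALBc (blue) and C57 (red), with SE bars, filled where the adjusted p was under 0.05. The C57 change of Cerkl, -0.81, is the single filled point, and the BALBc change of the same gene lies near 0 at -0.03.

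The BALBc response minus the C57 response asks which genes reacted to oxygen differently in the strains. limma called 0 of the 32 enzymes and 0 of all tested genes (0%), and voom on recovered reads called 0 as well. An unadjusted p below 0.05 was found for 4 enzymes, against 9.56% of all tested genes. Cerkl had the smallest p, with a difference of 0.78 (SE 0.19, 95% interval 0.38 to 1.17, limma adjusted p = 0.25), and its adjusted p ran from 0.0986 to 0.917 over the other settings. Ptdss2 followed at 0.47 (SE 0.18, limma adjusted p = 0.428) and Kdsr at -0.31 (SE 0.13, limma adjusted p = 0.47). So the fall of Cerkl in C57 was not shown to differ from the BALBc response.

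Averaged over both strains, hyperoxia called 1 of the 32 enzymes, Cerkl, lower by a change of -0.42 (SE 0.09, limma adjusted p = 0.0343), in a comparison that called 1.79% of all tested genes, 0.749% lower. That mean is made of -0.81 in C57 and -0.03 in BALBc, and it lost the call in 14 of 28 other settings, 11 of them the removal of a single library: any C57 library except hyperoxia replicate 2 and normoxia replicate 3, and BALBc hyperoxia replicates 2 and 3 and normoxia replicates 1, 3 and 4 (adjusted p between 0.0527 and 0.0724). Cept1 had changes of 0.24 in BALBc and 0.22 in C57, with a mean of 0.23 (SE 0.06, limma adjusted p = 0.0635), and passed the threshold without BALBc hyperoxia replicate 1 (adjusted p = 0.031) or C57 hyperoxia replicate 4 (0.0436). About 24.7% of its exon bases lie in exons of Dennd2d on the opposite strand. Sptssa had a mean change of 0.28 (SE 0.10, limma adjusted p = 0.165).

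**Figure D4:**
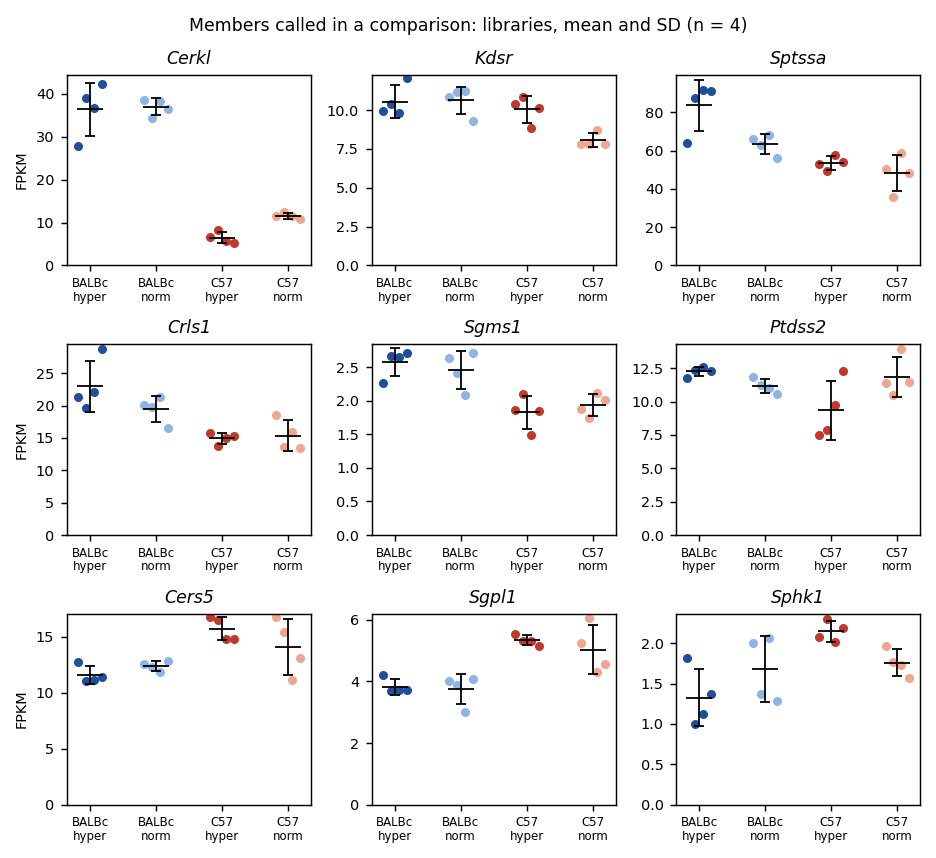
FPKM per library (points), with mean and SD (black, n = 4), for the 9 enzymes called in any comparison, BALBc left of C57 and hyperoxia left of normoxia, on axes from 0. Cerkl is separated by strain at 36.4 and 36.9 FPKM in BALBc against 6.44 and 11.6 FPKM in C57. Group means of the other 8 genes lie closer together in proportion, such as Sptssa at 83.5 FPKM in BALBc hyperoxia and 48.3 FPKM in C57 normoxia.

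Within groups, some enzymes varied from library to library with the rod genes. Cds1 varied most, with a ratio of highest to lowest library of 3.45 in C57 normoxia, where the median tested gene had 1.39. It had 16.1, 15.9, 54.8 and 48.6 FPKM in C57 normoxia replicates 1 to 4, whose rod list means were 8.72, 8.53, 9.93 and 9.62 on the log2(FPKM + 0.5) scale. In BALBc hyperoxia it had 21.1, 52.8, 51.0 and 32.9 FPKM, with rod means of 8.94, 10.01, 10.02 and 9.56. C57 hyperoxia, with rod means of 9.08 to 9.32, held 26.0 to 30.9 FPKM, and BALBc normoxia, with rod means of 9.57 to 9.74, held 43.5 to 56.8 FPKM. Libraries low in rod genes were thus low in Cds1 in both groups that varied. Other lists moved in the same libraries. Summed FPKM of 6 pigment epithelium genes was 66.3, 63.2, 198 and 182 in C57 normoxia replicates 1 to 4. It was 69.8, 315, 357 and 139 in BALBc hyperoxia. For 9 cone genes the sums were 247, 219, 430 and 343 in C57 normoxia and 270, 365, 403 and 274 in BALBc hyperoxia. The part of these lists was not tested.

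Cerk and Cds2 showed the same order in C57 normoxia, at 26.0, 28.5, 53.9 and 51.1 FPKM and at 33.6, 36.7, 58.7 and 56.6 FPKM in replicates 1 to 4. The choline kinase Chka, which starts the choline route, and Cers2, a ceramide synthase for very long acyl chains, ran the other way. Chka had 6.28, 7.16, 3.42 and 4.18 FPKM and Cers2 11.9, 14.2, 10.6 and 9.81 FPKM in the same libraries, and in BALBc hyperoxia Chka had 6.46, 2.26, 3.28 and 4.36 FPKM. None of these 5 genes was called in any comparison of the groups. With the rod list as a covariate, calls among all tested genes in BALBc hyperoxia against normoxia rose from 24 to 641. Cds1 was then lower in BALBc hyperoxia than in BALBc normoxia (log2 change -0.40, SE 0.08, limma adjusted p = 0.0118), against -0.39 (adjusted p = 0.671) without the covariate. What part rod content has in these values was not tested beyond that covariate.

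**Figure D5:**
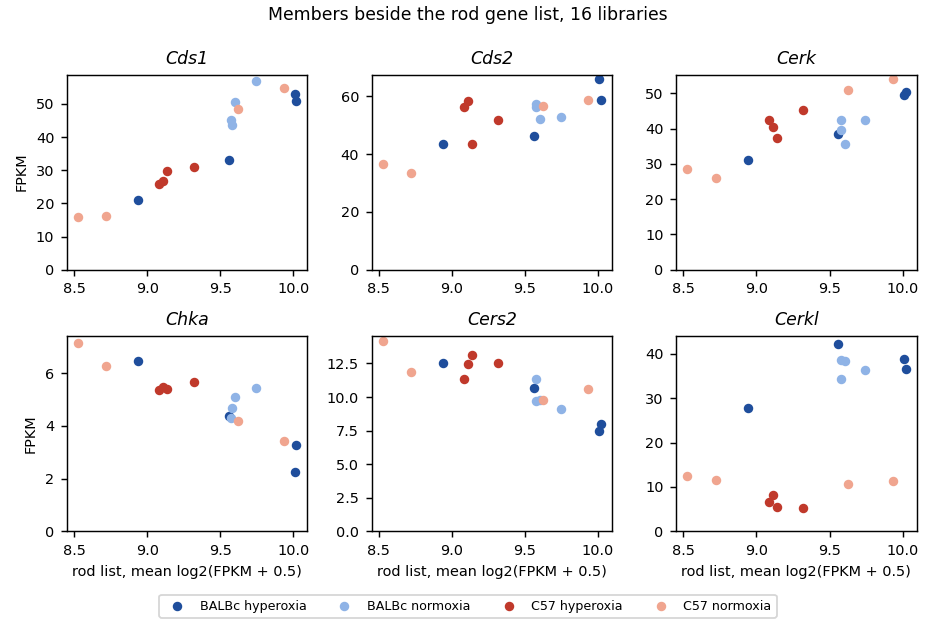
FPKM of 6 enzymes, chosen after their values were seen, against the mean log2(FPKM + 0.5) of 14 rod genes, 1 point per library in each of the 4 groups. Within C57 normoxia, Cds1, Cds2 and Cerk are higher and Chka and Cers2 lower in the 2 libraries rich in rod genes, and Cerkl follows strain, with C57 at 5.32 to 12.4 FPKM across the whole rod range.

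Other genes of the same pathways were read from lists of 47 sphingolipid and 62 phospholipid genes, of which 35 and 53 were tested. In C57 and in BALBc hyperoxia against normoxia, limma and voom called 0 of either list, with 3 sphingolipid and 6 phospholipid genes at an unadjusted p under 0.05 in C57 and 6 of each in BALBc, where all tested genes gave 13.3% and 14.2%. In BALBc against C57 normoxia, 1 sphingolipid gene was higher, and 2 phospholipid genes were higher and 2 lower, against 9.08% of all tested genes in either direction. voom gave 1 sphingolipid gene higher, and 3 phospholipid genes higher and 3 lower. In BALBc against C57 hyperoxia, 7 sphingolipid genes were higher and 2 lower, and 4 phospholipid genes were higher and 8 lower, in limma and in voom. All tested genes gave 22.6%, so these shares lay near the background.

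The sphingolipid gene that stood first in both strain comparisons was Samd8, which makes a ceramide phosphoethanolamine. It had 31.9, 47.4, 42.2 and 44.3 FPKM in BALBc hyperoxia, against 22.9, 20.9, 17.9 and 20.6 FPKM in C57 hyperoxia (log2 difference 0.98, SE 0.16, limma adjusted p = 0.000611). In room air it had 36.4, 37.9, 38.6 and 34.9 FPKM in BALBc, against 15.0, 16.1, 25.6 and 24 FPKM in C57 (0.89, SE 0.16, limma adjusted p = 0.00171). The strains did not overlap in either oxygen. Atp8a1, a flippase that moves phosphatidylserine to the inner leaflet, was higher in BALBc in both, at 6.51 ± 0.488 against 4.25 ± 0.0850 FPKM in hyperoxia (limma adjusted p = 0.002) and 7.58 ± 1.44 against 5.34 ± 0.261 FPKM in normoxia (SD, n = 4 each; limma adjusted p = 0.0133), and both calls were lost with TPM scaling (adjusted p = 0.0992 and 0.205).

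In normoxia Stard7, a phosphatidylcholine carrier to mitochondria, averaged 59.5 ± 3.92 FPKM in BALBc and 41.7 ± 1.72 FPKM in C57 (SD, n = 4 each; log2 difference 0.51, SE 0.08, limma adjusted p = 0.00067). Gdpd1, a lysophospholipase D, averaged 12.9 ± 0.397 FPKM in BALBc normoxia and 20.2 ± 2.01 FPKM in C57 normoxia (-0.62, SE 0.10, limma adjusted p = 0.000521). In hyperoxia Gnpat, the peroxisomal enzyme that starts plasmalogen synthesis, averaged 39.0 ± 4.0 FPKM in BALBc and 28.6 ± 2.32 FPKM in C57 (0.44, SE 0.08, limma adjusted p = 0.00218; 0.0526 with TPM scaling). Mboat2, a lysophospholipid acyltransferase, averaged 1.79 ± 0.460 FPKM in BALBc hyperoxia and 3.30 ± 0.310 FPKM in C57 hyperoxia (-0.75, SE 0.14, limma adjusted p = 0.00151). The libraries of the strains did not overlap for any of these 4 genes.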

How the data were processed

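RNA sequencing of whole mouse retina gave 16 libraries in 4 groups. Alignment used HISAT2 2.0.5 on GRCm38, and counting used featureCounts 1.5.0-p3, per the submitters' processing notes. The strand setting is not given in the sources used here. The authors deposited FPKM values, 1 column per library.

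Gene models came from GENCODE mouse release 21. Whole reads were recovered from the FPKM steps: 97.1% to 97.5% of values up to 1000 reads were whole within 0.01. Recovered reads over the library size that the steps imply were 0.884 to 1.15, so that size was not the plain read total.

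limma 3.58.1 in R 4.3.3 fitted log2(FPKM + 0.5) for the 14953 genes that reached 1 FPKM in 4 or more libraries, with empirical Bayes moderation and a mean-variance trend. The pseudocount shrinks the changes of low genes. The 6 comparisons were two-sided, with Benjamini-Hochberg adjustment over all tested genes and a threshold of 0.05, and the fit was tested on simulated data. Described in full were enzymes past the threshold and the 3 with the smallest p per comparison, and at most 4 called genes per comparison from the other pathway lists. The members and lists were chosen with earlier results of these data known. Other pseudocounts, filters, scalings, covariates, the replicate block, voom and leaving out each library were the alternatives. The sex and rod covariates together were added after seeing the data. Also used were Python 3.11.15, pandas 2.3.3, numpy 2.4.6 and matplotlib 3.10.9.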

Additional observations from a re-analysis of the deposited data

Results flagged for a closer look

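Single libraries stood apart from the other 3 of their group for 8 of 136 combinations of enzyme and group, where chance gives about 5% of such sets. The measure is the gap to the nearest library over the range of the group, and Dixon's 95% limit for 4 libraries was passed. BALBc hyperoxia replicate 1 accounts for 4 of them: it was the lowest library for Sptssa (0.8421; 64.1 FPKM against 87.4 to 91.7), Sgms1 (0.8698; 2.26 against 2.66 to 2.71) and Asah1 (0.8716; 13.6 against 17.1 to 17.6), and the highest for Sgpl1 (0.9295; 4.23 against 3.69 to 3.72). It also had the lowest rod list mean of its group, 8.94 against 9.56 to 10.02. BALBc hyperoxia replicate 4 was low for Cers1 (0.8461; 3.0 FPKM against 3.59 to 3.69), whose model shares 42.5% of its exon bases with Gdf1. BALBc normoxia replicate 3 was low for Sgpl1 (0.8292, just past the limit; 3.02 FPKM against 3.89 to 4.07). C57 normoxia replicate 3 was high for Kdsr (0.9758; 8.72 FPKM against 7.80 to 7.83), and C57 normoxia replicate 1 was low for Cers4 (0.9587; 18.3 FPKM against 20.6 to 20.7). The cause was not tested for any of them.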

How the results depend on the processing

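Counts of called enzymes that changed by over 1.5 times, or from or to 0, are listed below, and no named gene reversed under any setting run. Smaller changes occurred too. For BALBc against C57 normoxia the count was 2 without a filter, with the rod covariate and with those groups alone. The sex covariate gave 3 there, of which 2 were shared with the fit without covariates. For BALBc against C57 hyperoxia the sex covariate gave 6, and the rod covariate gave 8, of which 6 were shared. In C57 hyperoxia against normoxia the count of 1 became 0 with the replicate block, with the sex covariate, with the sex and rod covariates and with those groups alone, and was 0 to 1 when a library was left out. All tested genes gave 1, 0, 0 and 1 calls with those changes, in that order, against 50 without them. In BALBc the count of 0 became 2 with the rod covariate and 2 with both covariates (Sptssa higher, Cds1 lower), and stayed at 0 when a library was left out. Calls among all tested genes rose there from 24 to 641 with the rod covariate and to 698 with both. For the mean effect of oxygen, the count of 1 became 0 without a filter and 0 with the sex covariate. It became 3 with the rod covariate (Sptssa and Cept1 higher, Cerkl lower). With both covariates it was also 3 (Sptssa and Cept1 higher and Cds1 lower, without Cerkl). It was 0 to 2 when a library was left out. The 268 calls among all tested genes became 15 with the sex covariate, 1261 with the rod covariate and 555 with both. For BALBc against C57 normoxia the count of 3 became 1 with TPM scaling, and was 1 to 5 when a library was left out (1 without BALBc replicate 3, 5 without C57 replicate 3). TPM scaling called 1125 of all tested genes there, against 1358 without it. For BALBc against C57 hyperoxia the count of 8 became 5 with those groups alone and 5 with both covariates, and was 6 to 11 when a library was left out. Those groups alone called 2003 of all tested genes, against 3380 in the fit of all 4 groups. The difference of the responses stayed at 0 in the settings run. The cause of these changes was not tested. voom on recovered reads called 53, 28, 287, 0, 1462 and 3384 genes of the whole table in the C57, BALBc, mean, difference, normoxia and hyperoxia comparisons, against 50, 24, 268, 0, 1358 and 3380 here. TPM scaling moved the median gene by -0.15 in BALBc hyperoxia against normoxia, by -0.11 in the mean effect and by -0.16 between strains in hyperoxia; relative to that, the hyperoxia strain differences were 2.40 for Cerkl, 0.61 for Sptssa, 0.58 for Crls1 and -0.42 for Sgpl1. Same-numbered libraries did not pair: 6 of 24 correlations of their deviations were over 0.1, from -0.50 to 0.40, and in 4 of the 24 pairs a library correlated best with its own number. With the replicate block the C57 change of Cerkl was -0.81 (adjusted p = 0.0582). The replicate block changed no other count of enzymes by over 1.5 times.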
